A study of Mus musculus with 6 samples.

Results

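The transcripts of 53 genes of mitosis, the kinetochore and cytokinesis were measured in 2 lines of cultured mouse kidney cells. The set held mitotic cyclins and kinases, the spindle checkpoint, the outer kinetochore, mitotic kinesins, condensin and the cytokinesis machinery. The genes were chosen by function as a list of symbols, with earlier results of these data known. All 53 were among the 12803 genes of the expression table. The KO group held 3 libraries of a line labelled Podocyte Derived Myosin 1e KO, with the genotype Myosin 1e KO. The WT group held 3 libraries of a podocyte line that the labels name after Mundel. Podocytes are the epithelial cells that wrap the capillaries of the glomerulus, and Myo1e encodes a membrane-binding, actin-based motor. Mouse podocytes of the Mundel line are known as conditionally immortalised cells that carry a heat-sensitive viral large T antigen and divide or rest according to the culture temperature. The sources used here do not give the culture temperature, passage or density of these cells. Each genotype was 1 line, so genotype and line cannot be told apart. Heterozygous cells, which the design text mentions, were not analysed here.

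In mitosis, cyclin-bound CDK1 and the Polo and Aurora kinases drive chromosome condensation and the building of the spindle. Kinetochores attach the chromosomes to microtubules, and the spindle checkpoint holds back the anaphase-promoting complex until all are attached. That complex then marks securin and the mitotic cyclins for degradation, and a contractile ring divides the cell. Most of these genes are transcribed late in the cell cycle. Many of their promoters are bound by the MuvB complex, which works as a repressor together with p107 or p130 and E2F4 (DREAM) in resting cells and as an activator together with B-MYB and FOXM1 in G2. MuvB is known to bind the cell cycle genes homology region (CHR), with the letters TTTGAA, and many of these promoters also hold CCAAT boxes for NF-Y. Podocytes of the adult kidney are known as cells that have left the cell cycle.

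Each library held 35447096 to 42106461 reads in the listed genes. Levels are in CPM, the reads of a gene scaled to the depth of its library. Myo1e was at 18.9, 16.3 and 16.8 CPM in the KO libraries, against 184, 180 and 168 CPM in the WT libraries (log2 difference -3.35, limma adjusted p = 2.1e-08), in the direction of the labels in all 6. Correlations of log2 CPM across genes were 0.988 to 0.994 within a group and 0.686 to 0.703 between the groups. Markers of other cell types also differed between the lines. All 8 epithelial markers were higher, with a summed level of 6661 to 7140 CPM in the KO libraries and 1.06 to 1.19 CPM in the WT libraries. Of 8 mesenchymal markers 5 were listed, 1 higher and 4 lower, with 104 to 135 CPM in the KO libraries and 2234 to 2683 CPM in the WT libraries. The higher one, Postn, made up most of the KO sum, with a mean of 116.5 CPM there. Among the 4 lower ones, Vim had a mean of 3.44 CPM in the KO libraries, against 2168 CPM in the WT libraries. Of 10 podocyte markers 7 were listed, 2 higher and 4 lower, with 621 to 830 CPM in the KO libraries and 1169 to 1389 CPM in the WT libraries. Most of the KO sum came from Cd2ap, which was higher, and Synpo, which was lower, with means of 390 and 209 CPM. Also among the 4 lower ones, Wt1 had a mean of 0.125 CPM in the KO libraries, against 4.40 in the WT libraries. For Plce1 the means were 1.37 and 226 CPM. The slit diaphragm gene Nphs1 was not in the table used here. None of 6 endothelial markers was listed, and neither of the 2 listed leukocyte markers of 6 passed the test. The part of these marker differences in the results below was not tested.

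All 53 mitosis and cytokinesis genes were lower in the KO line and passed the test across all genes, and none was higher, also at an unadjusted p under 0.05. For comparison, 33.8% of the 12616 genes tested were lower and 34.3% were higher at the same threshold, a Benjamini-Hochberg adjusted p under 0.05 in limma. The median log2 difference of the 53 genes, KO minus WT, was -2.75, against 0.01 over all genes tested. The smallest fall was that of the condensin subunit Ncaph at -0.90 and the largest that of the spindle motor Kif11 at -4.52. These differences are on the deposited log2 scale, which includes a prior of about 1 read. On the linear scale, the mean WT level was 1.88 to 22.2 times the mean KO level. In none of the 53 genes did the libraries of the lines overlap, against 36.4% of all genes lower without overlap, and the lowest WT library was 1.31 to 9.56 times the highest KO library. A fall that passed and was at least 2-fold was found in 50 of the 53, against 16.2% of all genes tested. Falls of at least 4-fold were found in 37 (8.80% of all genes), of at least 8-fold in 20 (5.59%) and of at least 16-fold in 6 (3.75%). These fold counts are on the deposited log2 scale. Kif14 is among the 6 there, while its mean WT level was 15.2 times its mean KO level on the linear scale. Fewer dividing cells and fewer transcripts per dividing cell cannot be told apart in these bulk libraries.

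The genes together took 0.0467% ± 0.0050 of the reads in the KO libraries and 0.228% ± 0.065 in the WT libraries (SD, n = 3 each). Their levels summed to 478, 522 and 410 CPM in the KO libraries, against 1544, 2814 and 2450 CPM in the WT libraries. The third KO library was thus the lowest of its line and the first WT library the lowest of its own. Without that KO library the median log2 difference was -2.54, and without that WT library it was -3.01, with all 53 genes lower and past the threshold in both cases. To be tested, a gene needed more than 1 CPM in at least 3 of the 6 libraries. Of the members, 44 were above this level in all 3 KO libraries and 8 in 2 of them, while Kif14 was above it in the WT libraries only.

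**Figure D1:**
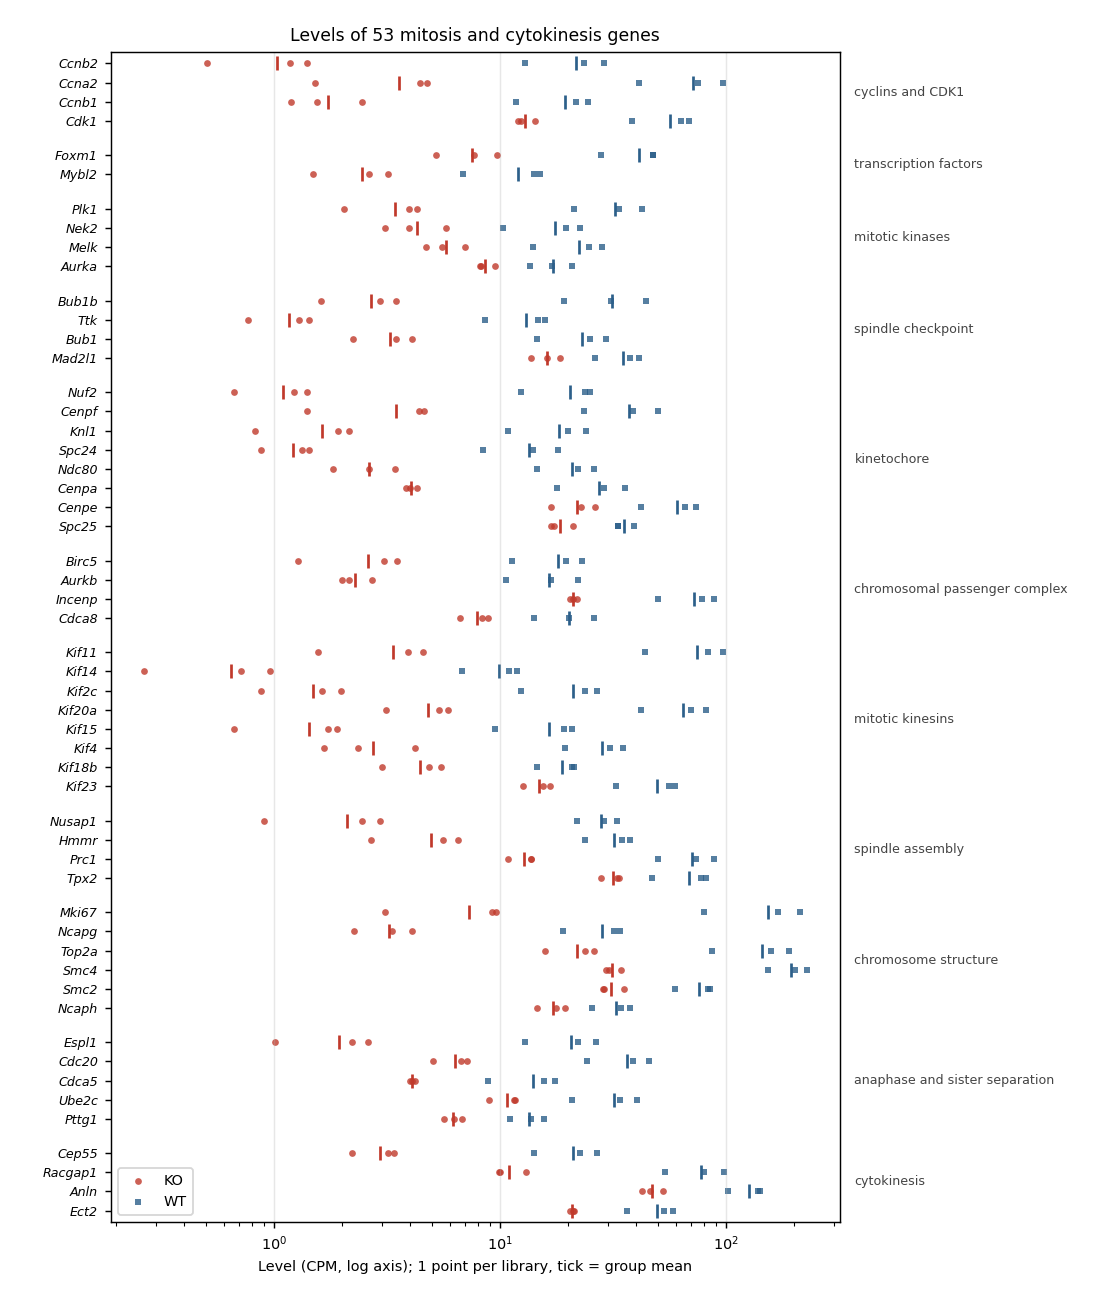
Level of each of the 53 genes in CPM on a log axis, grouped by role, with 1 point for each of the 3 KO and 3 WT libraries and a tick at each group mean. In every row the 3 KO points lie left of the 3 WT points, with the closest approach at 1.31-fold and the widest at 9.56-fold.

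Promoter windows of 250 bases before to 50 bases after the transcription start (RefSeq, GRCm38.p6) were on hand for 45 of the 53 genes, in 48 windows. Those of Incenp, Foxm1, Tpx2, Smc4, Ccna2, Aurkb, Kif20a and Spc24 are not shown or counted. Windows of 6 genes are shown to set genes with large falls beside genes with small ones, with and without the CHR letters. Each runs 5′ to 3′ along its gene's strand. Capitals mark the CHR letters, read as TTTGAA or on the other strand as TTCAAA, and the CCAAT box, which reads as ATTGG on the other strand. Kif11 (chr19:37376132-37376431, plus strand), Ccnb2 (chr9:70421505-70421804, minus strand) and Plk1 (chr7:122159185-122159484, plus strand) had log2 differences of -4.52, -4.41 and -3.24. Spc25 (chr2:69206164-69206463, minus strand) had a small fall at -0.94. Nuf2 (chr1:169531415-169531714, minus strand) and Ncaph (chr2:127133905-127134204, minus strand) hold neither motif in the window, and their differences were -4.18 and -0.90.
Kif11: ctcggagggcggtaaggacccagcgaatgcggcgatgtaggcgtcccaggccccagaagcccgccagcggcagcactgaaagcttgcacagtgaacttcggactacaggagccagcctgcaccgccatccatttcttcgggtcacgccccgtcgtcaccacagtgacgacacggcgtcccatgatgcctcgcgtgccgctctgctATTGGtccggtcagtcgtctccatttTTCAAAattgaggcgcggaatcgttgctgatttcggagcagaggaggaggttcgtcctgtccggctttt
Ccnb2: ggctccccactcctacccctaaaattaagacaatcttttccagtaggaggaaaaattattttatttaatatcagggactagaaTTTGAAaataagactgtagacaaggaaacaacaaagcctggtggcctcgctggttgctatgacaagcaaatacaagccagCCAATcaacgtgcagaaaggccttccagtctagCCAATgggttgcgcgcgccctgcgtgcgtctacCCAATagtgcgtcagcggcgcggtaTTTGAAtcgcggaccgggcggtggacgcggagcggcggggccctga
Nuf2: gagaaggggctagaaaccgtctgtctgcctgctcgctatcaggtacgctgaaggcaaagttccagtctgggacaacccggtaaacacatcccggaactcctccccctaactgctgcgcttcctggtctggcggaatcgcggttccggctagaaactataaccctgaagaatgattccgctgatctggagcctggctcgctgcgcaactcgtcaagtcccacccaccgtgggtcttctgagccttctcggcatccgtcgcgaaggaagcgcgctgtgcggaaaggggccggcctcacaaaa
Spc25: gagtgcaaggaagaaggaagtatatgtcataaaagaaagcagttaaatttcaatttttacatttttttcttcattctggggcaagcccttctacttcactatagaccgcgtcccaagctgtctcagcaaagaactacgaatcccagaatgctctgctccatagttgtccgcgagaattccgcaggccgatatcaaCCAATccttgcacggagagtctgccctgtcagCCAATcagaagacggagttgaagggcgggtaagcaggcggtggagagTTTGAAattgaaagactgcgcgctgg
Plk1: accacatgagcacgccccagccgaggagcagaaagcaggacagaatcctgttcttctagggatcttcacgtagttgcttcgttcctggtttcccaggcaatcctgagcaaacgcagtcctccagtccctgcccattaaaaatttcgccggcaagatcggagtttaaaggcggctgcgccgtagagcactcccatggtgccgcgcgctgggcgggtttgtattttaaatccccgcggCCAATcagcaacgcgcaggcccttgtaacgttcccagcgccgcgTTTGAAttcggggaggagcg
Ncaph: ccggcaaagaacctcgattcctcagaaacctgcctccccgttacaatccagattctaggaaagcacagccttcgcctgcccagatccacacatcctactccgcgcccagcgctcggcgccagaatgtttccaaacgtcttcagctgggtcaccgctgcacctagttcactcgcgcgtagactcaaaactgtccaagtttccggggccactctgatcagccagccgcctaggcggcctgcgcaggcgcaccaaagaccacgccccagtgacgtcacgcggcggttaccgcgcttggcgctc

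The CHR letters TTTGAA, on either strand, were present in 36 of the 48 member windows (75%). They were present in 5 of 36 windows of a list of DNA replication and S-phase genes (13.9%), in 11.9% of 12878 windows of genes of the table and in 17.9% of all 32851 windows. CCAAT was present in 66.7% of the member windows and in 58.3% of the DNA replication windows, against 37.8% of windows of genes of the table. Both motifs stood together in 58.3% of the member windows, in 11.1% of the DNA replication windows and in 4.90% of those of genes of the table. An E2F-type site with the letters TTTGGCGC, or alternatively TTCCCGCC, was present in 1 member window (2.08%), in 30.6% of the DNA replication windows and in 4.83% of those of genes of the table. Members with and without these letters overlapped in the size of the fall. Those with the CHR letters had a median log2 difference of -2.78 (n = 33) and the others -2.14 (n = 12), with a shared range from -4.18 to -0.94. Members with CCAAT had a median of -2.72 (n = 30) and those without -2.81 (n = 15). None of these letter strings contains another. A match describes the letters of the window and is not a binding site.

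The mitotic cyclins and their kinase had a median log2 difference of -3.92 over 4 genes. Cyclin A2 (Ccna2), which works from S phase to early mitosis, had 4.43, 4.77 and 1.51 CPM in the KO libraries, against 41.0, 96.3 and 75.2 CPM in the WT libraries (log2 difference -4.38, SE 0.46, limma adjusted p = 4.9e-05). The main mitotic cyclin, Ccnb1, had 1.55, 2.45 and 1.19 CPM in the KO libraries, against 11.8, 24.5 and 21.7 CPM in the WT libraries (log2 difference -3.45, SE 0.33, adjusted p = 3.1e-05). Ccnb2, the second B-type cyclin, had 1.18, 1.40 and 0.504 CPM in the KO libraries, against 12.9, 28.7 and 23.6 CPM in the WT libraries (log2 difference -4.41, SE 0.41, adjusted p = 2.6e-05). The KO line kept 5.04% of the mean WT level of Ccna2, 8.96% of that of Ccnb1 and 4.73% of that of Ccnb2. The kinase itself fell less. Cdk1 had 11.9, 14.3 and 12.3 CPM in the KO libraries, against 38.1, 68.2 and 62.9 CPM in the WT libraries, or 22.8% of the WT mean (log2 difference -2.09, SE 0.21, adjusted p = 3.5e-05).

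The transcription factors FOXM1 and B-MYB, which activate late cell cycle genes, were also lower. Foxm1 had 7.68, 9.64 and 5.20 CPM in the KO libraries, against 27.8, 47.3 and 47.5 CPM in the WT libraries (log2 difference -2.44, SE 0.27, limma adjusted p = 6.8e-05). Mybl2, the gene of B-MYB, had 2.63, 3.20 and 1.49 CPM in the KO libraries, against 6.86, 14.1 and 15.0 CPM in the WT libraries (log2 difference -2.27, SE 0.36, adjusted p = 0.00062). Genes of the MuvB core, their shared partner, and of the DREAM repressor had smaller differences. Of 11 genes of the MuvB core and DREAM, 7 were lower and 1 was higher, with a median log2 difference of -0.58. Among all genes tested, 33.8% were lower and 34.3% higher. The MuvB subunit Lin9 was higher, at 21.6, 22.9 and 19.7 CPM in the KO libraries, against 14.1, 16.5 and 15.4 CPM in the WT libraries (log2 difference 0.48, adjusted p = 0.0043). The gene of the pocket protein p107, Rbl1, had the largest fall of that list at -1.02.

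The 4 mitotic kinases other than CDK1, Aurora B and the checkpoint kinases had a median log2 difference of -1.95. Plk1, the Polo kinase that acts from mitotic entry to cytokinesis, had 3.96, 4.28 and 2.04 CPM in the KO libraries, against 21.2, 42.3 and 33.4 CPM in the WT libraries (log2 difference -3.24, SE 0.33, limma adjusted p = 4e-05). Aurka, the Aurora kinase of the spindle poles, had 9.47, 8.10 and 8.22 CPM in the KO libraries, against 13.5, 20.8 and 17 CPM in the WT libraries (log2 difference -0.97, SE 0.17, adjusted p = 0.00097). The lines were thus closer for Aurka than for Plk1, and the lowest WT library exceeded the highest KO library by 1.43-fold for Aurka and 4.96-fold for Plk1. Nek2, a kinase of centrosome separation, and Melk lay between them at -2.0 and -1.91.

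The spindle checkpoint genes had a median log2 difference of -3.12 over 4 genes. Bub1b, which encodes the checkpoint protein BUBR1, had 3.47, 2.94 and 1.62 CPM in the KO libraries, against 19.1, 44.0 and 30.9 CPM in the WT libraries (log2 difference -3.52, SE 0.35, limma adjusted p = 3.8e-05). The kinases Bub1 and Ttk, which act at unattached kinetochores, had differences of -2.79 and -3.46. Mad2l1, which encodes MAD2, the checkpoint protein that binds CDC20, fell least of this group. It had 13.6, 18.3 and 16.1 CPM in the KO libraries, against 26.4, 41.2 and 37.4 CPM in the WT libraries (log2 difference -1.11, SE 0.18, adjusted p = 0.00069). Mad2l1 and Ccnb1, Mybl2 and Mki67 have pseudogenes with near-identical sequence (at least 95% over at least 200 bases), so their reads are uncertain to that extent.

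The kinetochore genes ranged widely, with a median log2 difference of -3.19 over 8 genes. Nuf2, a subunit of the NDC80 complex that binds microtubules, had 1.23, 1.40 and 0.663 CPM in the KO libraries, against 12.4, 25.0 and 23.8 CPM in the WT libraries (log2 difference -4.18, SE 0.35, limma adjusted p = 1.2e-05). Its partners Ndc80 and Spc24 had differences of -2.98 and -3.41. The other partner, Spc25, had 21.0, 16.8 and 17.3 CPM in the KO libraries, against 33.2, 39.1 and 33.1 CPM in the WT libraries (log2 difference -0.94, SE 0.12, adjusted p = 0.00017). So 3 of the 4 subunits of this complex were at 5.38% to 12.6% of the WT mean in the KO line and Spc25 was at 52.2%. Knl1, the scaffold of checkpoint proteins, had a difference of -3.50, and the microtubule-binding Cenpf one of -3.53. The centromeric histone variant Cenpa was at a log2 difference of -2.70. The kinetochore motor Cenpe had 22.8, 26.2 and 16.7 CPM in the KO libraries, against 42.1, 73.1 and 65.8 CPM in the WT libraries (log2 difference -1.45, SE 0.23, adjusted p = 0.00057).

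The chromosomal passenger complex, which corrects wrong attachments and later acts at the midzone, had a median log2 difference of -2.26 over its 4 genes. Its kinase Aurkb had 2.71, 2.14 and 1.99 CPM in the KO libraries, against 10.6, 22.0 and 16.7 CPM in the WT libraries (log2 difference -2.79, SE 0.26, limma adjusted p = 2.7e-05). Survivin (Birc5), which docks the complex on chromatin, had 3.49, 3.05 and 1.27 CPM in the KO libraries, against 11.3, 22.9 and 19.6 CPM in the WT libraries (log2 difference -2.83, SE 0.40, adjusted p = 0.00029). The scaffold Incenp and borealin (Cdca8) fell less. Incenp had 20.3, 21.9 and 20.9 CPM in the KO libraries, against 49.9, 88.0 and 78.0 CPM in the WT libraries (log2 difference -1.73, SE 0.19, adjusted p = 6.3e-05). Cdca8 had 8.32, 8.79 and 6.63 CPM in the KO libraries, against 14.1, 26.1 and 20.2 CPM in the WT libraries (log2 difference -1.31, SE 0.22, adjusted p = 0.00089).

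The 8 mitotic kinesins had a median log2 difference of -3.65 and included the largest fall of the set. Kif11, the motor that pushes the spindle poles apart (chromosome 19, 37376403 to 37421859, GRCm38), had 3.91, 4.57 and 1.57 CPM in the KO libraries, against 43.6, 96.7 and 82.8 CPM in the WT libraries (log2 difference -4.52, SE 0.42, limma adjusted p = 2.5e-05), or 4.50% of the WT mean. Kif15, which can partly stand in for that motor, fell as well, at -3.56. Kif14, a motor of cytokinesis, had 0.960, 0.713 and 0.265 CPM in the KO libraries, which is 74 reads in all, against 6.75, 11.9 and 10.9 CPM in the WT libraries (log2 difference -4.00, SE 0.44, adjusted p = 6.7e-05). Below 1 CPM in every KO library, Kif14 was tested through its WT level only. The size of its fall rests on few KO reads and was -2.71 with log2(CPM + 1). The microtubule depolymerase Kif2c, the chromokinesin Kif4, Kif20a and Kif18b lay between -3.79 and -2.10. Kif23, the motor subunit of centralspindlin, had 15.4, 16.6 and 12.6 CPM in the KO libraries, against 32.6, 59.5 and 55.7 CPM in the WT libraries (log2 difference -1.68, SE 0.22, adjusted p = 0.00021), and its fall was the smallest among the kinesins.

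The spindle assembly factors had a median log2 difference of -2.59 over 4 genes. Nusap1, a microtubule-bundling protein of the spindle, had 2.46, 2.94 and 0.902 CPM in the KO libraries, against 22.0, 32.8 and 28.7 CPM in the WT libraries (log2 difference -3.85, SE 0.40, limma adjusted p = 4.6e-05). Hmmr and the midzone bundler Prc1 had differences of -2.75 and -2.43. Tpx2, which activates Aurora A on the spindle, had 33.6, 32.8 and 27.8 CPM in the KO libraries, against 46.9, 81.3 and 76.9 CPM in the WT libraries (log2 difference -1.09, SE 0.20, adjusted p = 0.0013). Tpx2 and its kinase Aurka were thus both among the smaller falls, at 45.9% and 50.3% of the WT mean. Levels per kilobase were taken over all annotated exons of a gene, merged. This is not the length of 1 transcript, so the order depends on the annotation. Per kilobase of these exons, Tpx2 had the highest level of the 53 genes in the KO line, 6.72 CPM per kb, followed by Smc4 at 6.0 and Spc25 at 5.75. In the WT line Smc4 came first at 37.1 CPM per kb, followed by Cdc20 at 19.4 and Ccna2 at 17.3. Kif14 was the lowest per kilobase in both lines, at 0.0624 CPM per kb in the KO line and 0.949 CPM per kb in the WT line.

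Genes of chromosome structure had a median log2 difference of -2.65 over 6 genes. Mki67, which encodes the proliferation marker Ki-67, a coat of mitotic chromosomes (chromosome 7, 135689784 to 135716361), had 9.55, 9.22 and 3.10 CPM in the KO libraries, against 79.8, 211 and 169 CPM in the WT libraries (log2 difference -4.44, SE 0.48, limma adjusted p = 5.8e-05). Top2a, the topoisomerase that untangles sister DNA, had 23.7, 26.0 and 15.8 CPM in the KO libraries, against 86.2, 189 and 157 CPM in the WT libraries (log2 difference -2.68, SE 0.29, adjusted p = 6.1e-05). The KO line kept 4.76% of the mean WT level of Mki67 and 15.2% of that of Top2a. Among the condensin subunits, Smc4 (chromosome 3, 69004738 to 69034623) had 30.1, 34.3 and 29.3 CPM in the KO libraries, against 153, 226 and 200 CPM in the WT libraries (log2 difference -2.61, SE 0.14, adjusted p = 9.1e-07), which was the smallest adjusted p of the 53 genes. Its partner Smc2 fell less, at -1.29. Ncapg had 3.32, 4.08 and 2.26 CPM in the KO libraries, against 19.0, 33.7 and 31.9 CPM in the WT libraries (log2 difference -3.12, SE 0.27, adjusted p = 1.8e-05). Ncaph, the kleisin that closes the condensin I ring (chromosome 2, 127103809 to 127133954), had 14.6, 17.6 and 19.4 CPM in the KO libraries, against 25.4, 37.5 and 34.3 CPM in the WT libraries (log2 difference -0.90, SE 0.17, adjusted p = 0.0014). This was the smallest fall of the set and the largest adjusted p.

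Genes of anaphase and sister separation had a median log2 difference of -1.71 over 5 genes. Espl1, the gene of separase, the protease that cuts cohesin, had 2.21, 2.60 and 1.01 CPM in the KO libraries, against 12.9, 26.4 and 22.1 CPM in the WT libraries (log2 difference -3.43, SE 0.38, limma adjusted p = 7.1e-05). Its inhibitor securin (Pttg1) fell less, with 6.23, 6.76 and 5.62 CPM in the KO libraries, against 11.1, 15.6 and 13.7 CPM in the WT libraries (log2 difference -1.10, SE 0.16, adjusted p = 0.00032). Cdc20, the activator of the anaphase-promoting complex, had 6.74, 7.13 and 5.07 CPM in the KO libraries, against 24.3, 45.5 and 38.8 CPM in the WT libraries (log2 difference -2.48, SE 0.24, adjusted p = 2.8e-05). Ube2c, the ubiquitin-conjugating enzyme of that complex, had 11.5, 11.6 and 8.94 CPM in the KO libraries, against 20.8, 40.5 and 33.9 CPM in the WT libraries (log2 difference -1.53, SE 0.23, adjusted p = 0.00049). Sororin (Cdca5), which keeps sister chromatids together, had a difference of -1.71.

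The cytokinesis genes had a median log2 difference of -2.10 over 4 genes. Cep55, a midbody protein that recruits the abscission machinery, had 3.20, 3.40 and 2.20 CPM in the KO libraries, against 14.1, 26.7 and 22.5 CPM in the WT libraries (log2 difference -2.81, SE 0.26, limma adjusted p = 2.4e-05). Racgap1, the GTPase-activating subunit of centralspindlin, had 9.97, 13.0 and 9.84 CPM in the KO libraries, against 53.4, 97.5 and 79.9 CPM in the WT libraries (log2 difference -2.78, SE 0.21, adjusted p = 7.8e-06). Ect2, the exchange factor that centralspindlin recruits to activate RhoA, fell less. It had 21.2, 20.9 and 20.3 CPM in the KO libraries, against 36.2, 58.3 and 53.2 CPM in the WT libraries (log2 difference -1.21, SE 0.17, adjusted p = 0.00024). Anillin (Anln), a scaffold of actin, myosin and septins in the contractile ring, had 42.4, 45.7 and 52.6 CPM in the KO libraries, against 101, 141 and 137 CPM in the WT libraries (log2 difference -1.42, SE 0.14, adjusted p = 3.4e-05).

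**Figure D2:**
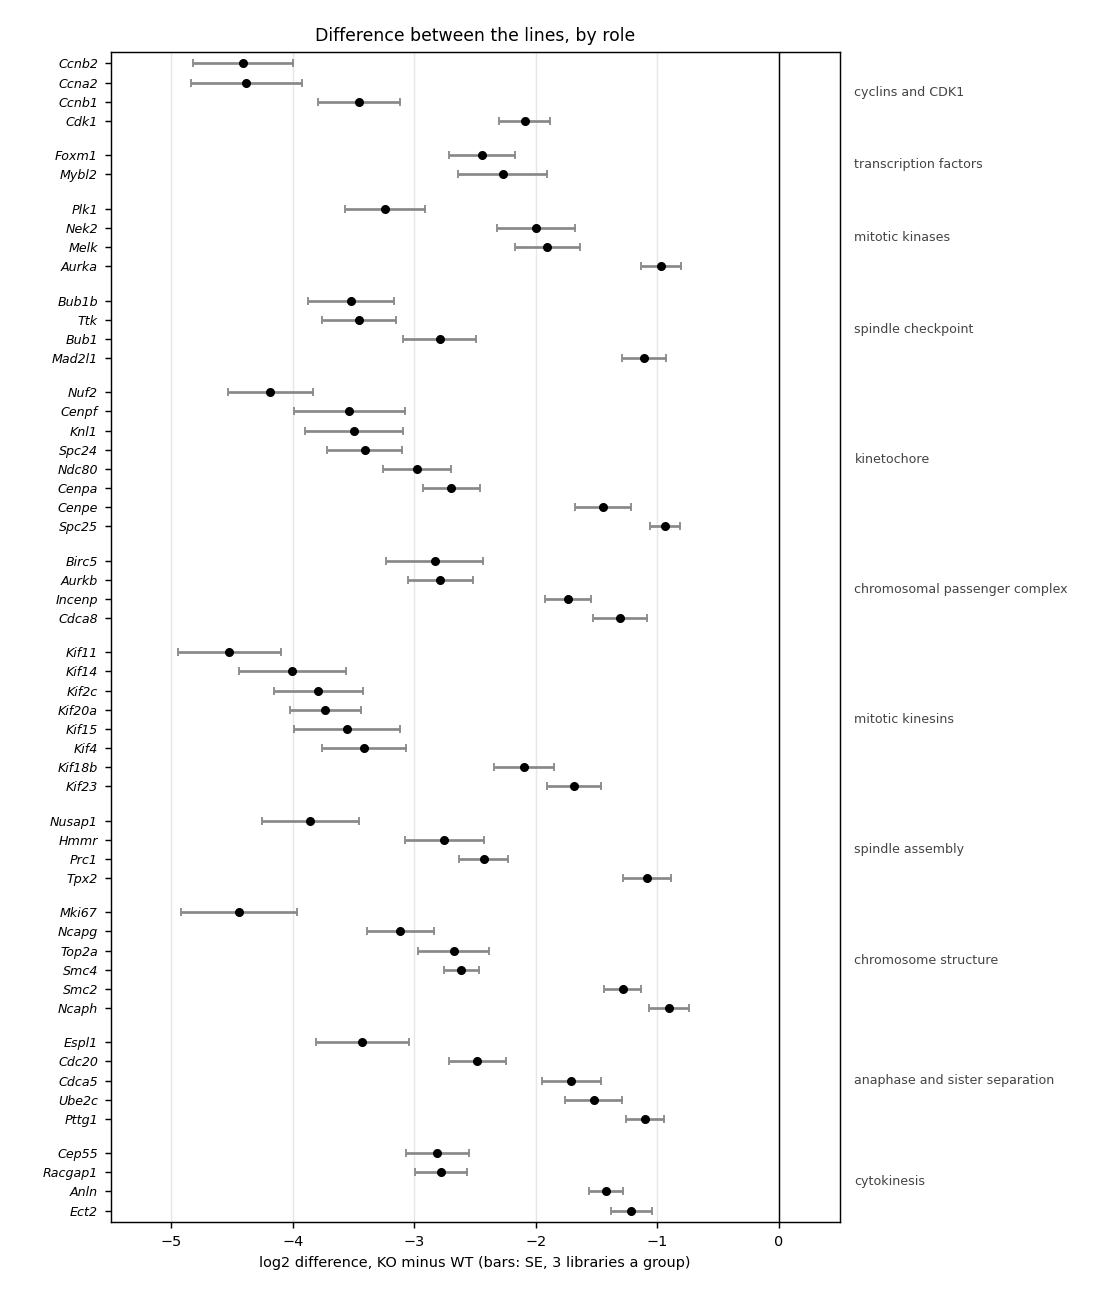
Log2 difference, KO minus WT, of the 53 genes by role, with bars for the SE of the limma fit (3 libraries a group). All points lie left of 0, between -0.90 for Ncaph and -4.52 for Kif11.

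Within several complexes the subunits fell by unequal amounts. To describe this, the log2 ratio of the subunit with the smallest fall to the one with the largest was taken in each library, so that the library's own scaling cancels. For Spc25 over Nuf2 of the NDC80 complex the ratio was 4.13 ± 0.56 in the KO libraries and 0.85 ± 0.50 in the WT libraries. For Ncaph over Ncapg of condensin I it was 2.45 ± 0.57 in the KO libraries and 0.23 ± 0.17 in the WT libraries. For Mad2l1 over Bub1b of the checkpoint it was 2.64 ± 0.67 in the KO libraries and 0.22 ± 0.29 in the WT libraries. For Cdca8 over Birc5 of the chromosomal passenger complex it was 1.72 ± 0.59 in the KO libraries and 0.18 ± 0.14 in the WT libraries. For Kif23 over Racgap1 of centralspindlin it was 0.45 ± 0.16 in the KO libraries and -0.65 ± 0.11 in the WT libraries (SD, n = 3 each throughout). The 3 KO ratios lay above the 3 WT ratios in all 5 pairs. Because the pairs were chosen by their differences after the values were seen, these ratios are a description and no test is given.

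The 53 genes also varied together among the libraries of 1 line. KO replicate 3 was the lowest KO library in 44 of 53 genes, against 38.0% of all genes, and KO replicate 2 was the highest in 38, against 32.9%. The level in KO replicate 3 was a median 0.635 of the mean of the other KO libraries. Lowest in this respect were Cenpf (0.314), Kif14 (0.317), Ccna2 (0.329), Mki67 (0.331) and Nusap1 (0.334), while Mad2l1 (1.01), Anln (1.19) and Ncaph (1.21) were not lower there. WT replicate 1 was the lowest WT library in 52 of 53 genes, against 37.6% of all genes tested, and WT replicate 2 was the highest in 50, against 24.1%. The level in WT replicate 1 was a median 0.565 of the mean of the other WT libraries, from 0.420 for Mki67 to 0.918 for Spc25. In the 40 genes of DNA replication and S phase, KO replicate 3 was the lowest KO library in 24 and WT replicate 1 the lowest WT library in 33. Highest among the KO libraries was replicate 2, in 33 of these genes. The highest WT library differed from that of the 53 genes, with replicate 3 highest in 26 and replicate 2 in 12. The genes share their libraries, so these counts describe the libraries and carry no test.

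**Figure D3:**
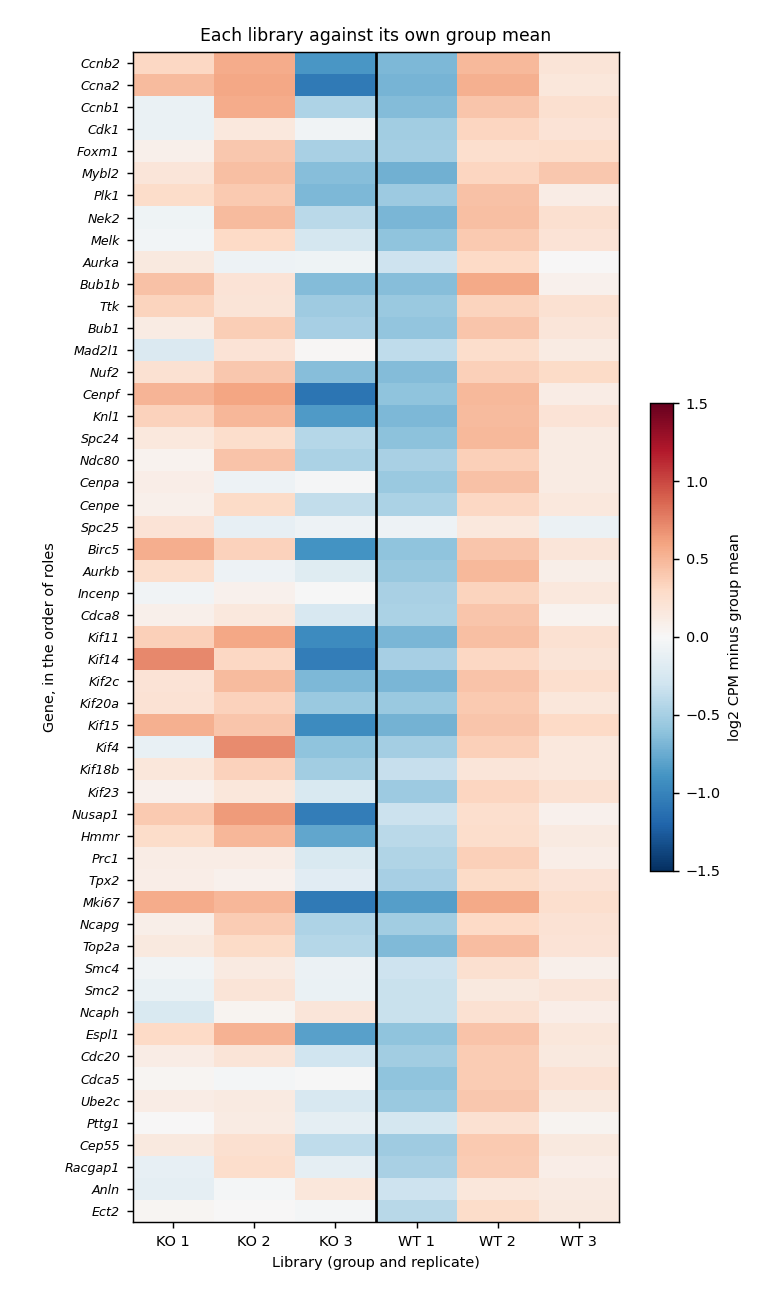
Each library's log2 CPM minus its own group's mean for the 53 genes, with KO replicates 1 to 3 left of WT replicates 1 to 3. KO replicate 3 is the lowest of its group in 44 genes and WT replicate 1 of its own in 52.

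Genes of the earlier part of the cycle were lower as well. Of 40 DNA replication and S-phase genes tested, 38 were lower and none was higher, also at an unadjusted p under 0.05. Their median log2 difference was -1.62. A fall that passed and was at least 2-fold was found in 32, against 16.2% of all genes tested. The S-phase cyclin Ccne2 fell most, with 0.886, 1.06 and 0.451 CPM in the KO libraries, against 12.8, 14.2 and 17.2 CPM in the WT libraries (log2 difference -4.23, limma adjusted p = 5.1e-06). The 6 subunits of the replicative helicase lay between -2.69 for Mcm5 and -1.23 for Mcm2, all past the threshold, and the sliding clamp Pcna one of -1.31. The replication factor Gins4 (log2 difference -0.11, adjusted p = 0.22) and E2f2 (log2 difference 0.14, adjusted p = 0.44) did not pass. Among 13 genes of D cyclins, their kinases, CDK inhibitors and Rb1, 3 were higher and 7 lower, with a median of -0.37. The shares over all genes tested were 34.3% higher and 33.8% lower. Ccnd1, the cyclin of G1 that answers to growth factors, was higher, with 886, 576 and 804 CPM in the KO libraries, against 158, 193 and 351 CPM in the WT libraries (log2 difference 1.75, adjusted p = 0.00064). The CDK4/6 inhibitor Cdkn2c was lower, with 0.591, 0.828 and 0.690 CPM in the KO libraries, against 78.0, 71.7 and 59.6 CPM in the WT libraries (log2 difference -6.59, adjusted p = 2.2e-08). Below 1 CPM in every KO library, Cdkn2c was tested through its WT level only. Cdkn1a, which encodes the p53 target p21, did not pass (log2 difference -0.07, adjusted p = 0.67).

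**Figure D4:**
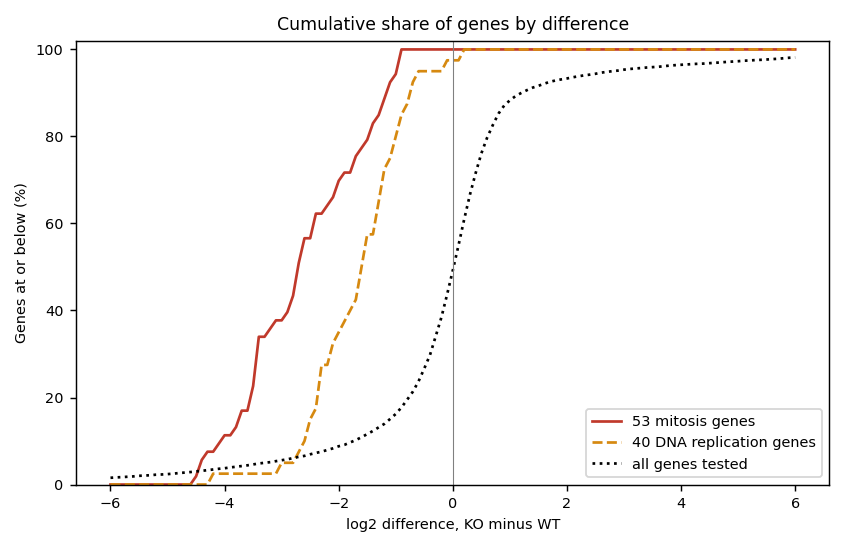
Cumulative percent of genes at or below each log2 difference, KO minus WT, for the 53 mitosis and cytokinesis genes, the 40 DNA replication and S-phase genes and all 12616 genes tested. The medians were -2.75 for the mitosis and cytokinesis genes, -1.62 for the DNA replication genes and 0.01 for all genes.

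Other genes of the same structures had smaller median differences. Their counts stand beside 33.8% lower and 34.3% higher over all genes tested. At the inner kinetochore and in CENP-A loading, 16 of 19 genes were lower and 1 was higher, with a median log2 difference of -1.33. Cenpm had the largest fall (log2 difference -3.71, limma adjusted p = 7.4e-06), and Cenpx, which also serves in DNA repair, was slightly higher at 10.7, 9.93 and 10.8 CPM in the KO libraries, against 8.62, 8.46 and 6.73 CPM in the WT libraries (log2 difference 0.41, adjusted p = 0.028). Cenpx lost its call without KO replicate 1 (adjusted p = 0.0821), KO replicate 3 (0.0695) or WT replicate 3 (0.0853). Among 16 other outer kinetochore and checkpoint genes, 10 were lower and 2 higher (median -0.58). Ska1, of the microtubule-tracking SKA complex, was at a log2 difference of -4.32 and Zwint, a partner of KNL1, at 0.44. The checkpoint protein Bub3 had 81.1, 79.6 and 82.0 CPM in the KO libraries, against 82.7, 89.6 and 91.5 CPM in the WT libraries, and did not pass (log2 difference -0.12, adjusted p = 0.17). All 4 other condensin subunits were lower (median -1.29), with the condensin II subunit Ncapg2 at -2.48. Of 14 cohesin genes 9 were lower and 1 was higher (median -0.80). The acetyltransferases of cohesin went opposite ways, with Esco2 at -4.15 (adjusted p = 8.3e-05) and Esco1 at 0.61 (adjusted p = 0.00031). Without KO replicate 3 the difference of Esco2 was -3.53. Cenpm (0.640, 0.628 and 0.371 CPM), Ska1 (0.443, 0.342 and 0.106 CPM) and Esco2 (0.738, 0.742 and 0.186 CPM) were below 1 CPM in every KO library. They were tested through their WT levels only, so the sizes of their falls rest on few KO reads.

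The median of the anaphase-promoting complex itself was closer to that of all genes. Of 17 genes of the complex and its regulators 7 were lower and 1 was higher, with a median log2 difference of -0.14. Over all genes tested, 33.8% were lower and 34.3% higher. The subunit Cdc27 was higher, with 140, 154 and 144 CPM in the KO libraries, against 103, 96 and 105 CPM in the WT libraries (log2 difference 0.52, limma adjusted p = 0.00032). The inhibitor EMI1 (Fbxo5) had the largest fall of that list at -2.81. Septins and abscission genes had 4 of 14 higher and 5 lower (median -0.10), which is near those shares of all genes. Citron kinase (Cit), a binding partner of Kif14 at the midbody, was at a log2 difference of -2.83, and the ESCRT-III subunit Chmp3 was higher at 0.89. Of 26 spindle pole and gamma-tubulin genes 19 were lower and 1 was higher (median -0.72), with Aspm at -3.49 and the augmin subunit Haus2 at 0.80. Of 11 mitotic entry genes 7 were lower and 1 was higher (median -0.58), with the histone kinase Haspin at -2.74 and the phosphatase inhibitor Arpp19 at 0.30. Of 5 other mitotic kinesins 4 were lower and none was higher (median -1.09), led by Kif22 at -2.72.

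**Figure D5:**
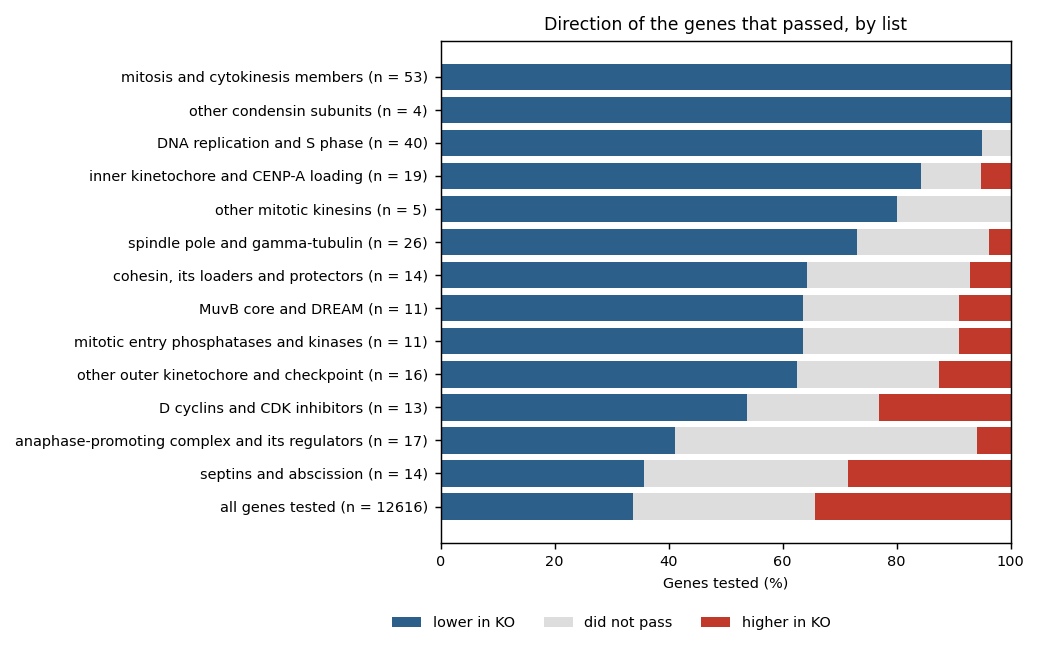
Percent of tested genes lower, not past the threshold, and higher in the KO line, for the 53 mitosis and cytokinesis genes, each pathway list and all genes tested, with the number of genes beside each name. The 53 genes were all lower, DNA replication came next with 38 of 40 among the lists of more than 5 genes, and all genes had 33.8% lower and 34.3% higher.

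Reads of 9 members could be shared with a listed gene on the opposite strand, because their exons overlap and the sources used here do not give the strand setting of the counting. The shared part was 29.3% of the exon bases of Kif20a (with Cdc23), 22.8% of Ube2c (Tnnc2), 15.1% of Kif4 (Pdzd11), 13.4% of Ncapg (Lcorl), 12.5% of Ccna2 (Exosc9) and 11.1% of Prc1 (Rccd1). It was smaller for Cdca8, Nusap1 and Cdc20. The library kit keeps the strand, per the labels.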

How the data were processed

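Messenger RNA of 3 KO and 3 WT libraries was sequenced from stranded libraries, per the labels' protocols. The submitters' processing notes name Trimmomatic 0.39, STAR 2.7.3a, featureCounts of Subread 1.6.4, edgeR and the genome build GRCm38. The authors deposited log2 CPM per gene. The sources used here do not give their filter, prior or strand setting. After subtraction of the lowest value shared by all libraries (-5.26 log2 CPM), 100% of the values came out as whole reads within 0.001, with a prior of 0.914 to 1.11 reads and scaling factors equal to those of TMM. CPM in the text are these reads on that scale, without the prior, and 3 reads equal 0.0703 to 0.0856 CPM.

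limma 3.58.1 in R 4.3.3 (lmFit, eBayes with an intensity trend, no covariates) compared KO minus WT on the deposited log2 CPM in genes above 0 log2 CPM in at least 3 libraries. P-values were adjusted by Benjamini-Hochberg over 12616 genes, with 187 not tested. The procedure was tested on simulated data in which few genes changed and the genes varied independently. In these data most genes passed and the members varied together, so that simulation does not give error rates here. The labels call replicates biological without naming cultures, so p-values reflect only the spread between samples, which may be technical. The members and lists were chosen with earlier results of these data known. Named genes were 9 chosen by name, in each role the genes with the largest change in each direction and the highest adjusted p, and in each pathway list the largest rise and fall past the threshold. Bub3, Mcm2, Mcm5, Rb1, Pcna, Gins4, E2f2, Cdkn1a and further members are named in addition, after their values were seen. Positions and exon lengths are from GENCODE M21 (GRCm38), which need not be the authors' annotation. Promoter windows are from RefSeq, and similar transcripts were found with blastn 2.17.0. Alternatives were other filters, scalings and pseudocounts, voom, no trend, a replicate block and each library left out.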

Additional observations from a re-analysis of the deposited data

How the results depend on the processing

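All 53 genes stayed lower and past the threshold under each of 16 alternatives to the limma test, and none was higher in any of them. Among these, TMM scaling of the recovered reads repeats the main fit, since its factors equal the deposited ones, and so adds no support. Over all genes, 7573 to 8743 were called, against 8590, with 7573 to 8323 when each library was left out in turn. The median log2 difference of the 53 genes was -3.01 to -2.54 with a library left out. The largest adjusted p of a member was 0.0086 (Tpx2, without KO replicate 3). With log2(CPM + 1) the median was -2.46, and Ccnb1, Ccnb2, Ttk, Nuf2, Spc24, Knl1, Kif2c, Kif14, Kif15 and Nusap1 had falls smaller by more than 1.5-fold, as had Ccne2, Cdkn2c, Cenpm, Esco2, Haspin and Ska1, because the larger pseudocount shrinks low levels. The log2 ratio of the mean member shares of reads, KO over WT, was -2.28, and -2.49 to -2.09 with a library left out. The sum weights each member by its level. Taken from the median of the members' log2 CPM in its place, which does not, the log2 ratio was -2.70, and the cause was not tested. The replicate numbers did not pair the libraries, since the correlations of same-numbered deviations were 0.101, 0.081 and -0.095, and not every library correlated best with its own number. A fit with the replicate number as a block called 53 members lower and 8395 genes in all. Scaling by plain library totals was added after the data were seen and called 8515 genes. edgeR's quasi-likelihood test, planned as an alternative, was not run. The precision of the lowest members is limited by depth, with 74 reads of Kif14 in the KO libraries.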

Other observations

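Genes known from mitosis that did not pass the test between the lines were found in most of the lists above. They included 9 of 17 genes of the anaphase-promoting complex and its regulators and 6 of 26 spindle pole and gamma-tubulin genes. Further examples follow. The spindle motor Kifc1 had 15.6, 13.0 and 12.4 CPM in the KO libraries, against 13.3, 18 and 16.4 CPM in the WT libraries (log2 difference -0.22, limma adjusted p = 0.23). Gtse1, a microtubule-bound protein of G2 and mitosis, had 119, 115 and 97.4 CPM in the KO libraries, against 120, 120 and 125 CPM in the WT libraries (log2 difference -0.15, adjusted p = 0.18). Bora, the activator of Plk1 by Aurora A, had 6.52, 7.22 and 6.85 CPM in the KO libraries, against 6.02, 10.5 and 9.70 CPM in the WT libraries (log2 difference -0.31, adjusted p = 0.23). Of the phosphatases that switch on CDK1, Cdc25a did not pass (log2 difference 0.14, adjusted p = 0.37) while Cdc25b (log2 difference -1.04, adjusted p = 0.0015) and Cdc25c (log2 difference -2.45, adjusted p = 0.00021) were lower. These genes were picked after their values were seen.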
